A study of Homo sapiens with 9 samples.

Results

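The thymosin and actin cytoskeleton genes were the 10 genes TMSB4X, TMSB10, ACTB, ACTG1, PFN1, CFL1, VIM, TAGLN, TAGLN2 and MYL9, selected by gene name from the 58735 genes in the files. The list was proposed with earlier results of these data in view, so the values of its members in the 3 comparisons are given as a description, without p values. All 10 were measured in all 9 libraries and passed the filter on low counts in each comparison.

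RNA sequencing was performed on 3 groups of cells with 3 libraries each. Huh-7 cells, a human hepatoma line that assembles and secretes apoB-containing lipoproteins, were the control and carry the WT genotype in the labels. Ako-3 cells are Huh-7 cells with an APOB knock out, and Mko-3 cells are Huh-7 cells with an MTTP knock out. APOB encodes the scaffold protein of these lipoproteins, and MTTP encodes the transfer protein that loads lipid onto it. Each knockout was represented by 1 clone, so that the effect of the deleted gene and other properties of the clone cannot be told apart. All cells were washed at 80 to 90% confluence and kept overnight without serum before RNA isolation, and polyadenylated RNA was sequenced. The libraries carried 14638727 to 20179760 counts. The labels call the libraries of a group biological replicates but do not say which cultures they came from, so the spread between them may be partly technical.

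APOB ranged from 2684 to 3872 CPM, the counts scaled to a common library size, in Huh-7 cells and from 1258 to 1420 CPM in Ako-3 cells. MTTP ranged from 603.5 to 663 CPM in Huh-7 cells and from 82.9 to 90.6 CPM in Mko-3 cells. Both targeted genes were therefore lower in the clone named for them, in every library. Hepatocyte markers were abundant in all groups, with a summed level of 18370 to 18860 CPM over 9 genes in Huh-7, 22150 to 23280 CPM in Ako-3 and 18400 to 19300 CPM in Mko-3 libraries. Similar sums in Huh-7 and Mko-3 cells hide differences in both directions. ALB was at 8346 to 8863 CPM in Huh-7 and 6120 to 6395 in Mko-3 libraries. AFP was at 3374 to 3537 CPM in Huh-7 and 5904 to 6301 in Mko-3 libraries.

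Actin exists as soluble monomers and as filaments, and cells control how much of it is in each form. Beta-thymosins (TMSB4X, TMSB10) bind monomers one to one and keep them out of filaments, while profilin (PFN1) hands monomers to growing filament ends. Cofilin (CFL1) severs old filaments and returns monomers to the pool. ACTB and ACTG1 encode the cytoplasmic beta and gamma actins themselves. TAGLN and TAGLN2 encode transgelins, which bind and stabilize filaments, and MYL9 encodes a regulatory light chain of smooth muscle and nonmuscle myosin II. VIM encodes vimentin, an intermediate filament protein of mesenchymal cells that many cultured carcinoma lines also make. Free actin monomers hold MRTF cofactors away from serum response factor (SRF), whose targets include actin genes.

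The member with the largest difference, TMSB4X, has a short coding sequence and a near-copy in the genome, and both are shown because reads from them can hardly be told apart. The coding sequence of TMSB4X lies within chrX:12976262-12976811 (hg38, plus strand) and is joined from 2 coding segments. The coding sequence of TMSB10 lies within chr2:84906018-84906423 (plus strand), also in 2 segments. TMSB4XP8 is an intronless pseudogene at chr4:90838903-90839037 (minus strand). In the lines below, written 5′ to 3′, capitals mark bases that differ from TMSB4X.
TMSB4X: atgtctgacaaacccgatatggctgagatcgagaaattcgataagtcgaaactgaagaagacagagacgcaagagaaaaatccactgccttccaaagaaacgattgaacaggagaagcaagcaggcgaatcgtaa
TMSB10: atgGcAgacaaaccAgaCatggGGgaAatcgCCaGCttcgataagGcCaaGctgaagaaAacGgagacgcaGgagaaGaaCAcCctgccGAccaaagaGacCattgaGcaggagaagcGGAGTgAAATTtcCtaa
TMSB4XP8: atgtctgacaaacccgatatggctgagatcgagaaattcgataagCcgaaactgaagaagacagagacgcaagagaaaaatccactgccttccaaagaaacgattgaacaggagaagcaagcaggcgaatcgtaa

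Each sequence is 135 bases long. TMSB10 differed from TMSB4X at 37 bases spread over the whole sequence, and the longest run that both share is 10 bases. TMSB4XP8 differed at 1 base only.

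In Huh-7 cells TMSB4X was at 80.1, 78.5 and 76.6 CPM. In Ako-3 cells it was at 307, 328 and 323 CPM, and in Mko-3 cells at 143, 138 and 155 CPM. The 3 groups did not overlap, with Ako-3 libraries highest, Mko-3 libraries between and Huh-7 libraries lowest. The fitted log2 difference was 2.02 (SE 0.063) for Ako-3 against Huh-7, 0.88 (SE 0.066) for Mko-3 against Huh-7 and −1.14 (SE 0.044) for Mko-3 against Ako-3. No library decided these values, which ran from 2.01 to 2.05, from 0.84 to 0.93 and from −1.19 to −1.10 when single libraries were omitted.

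TMSB10, the more abundant of these thymosins, had another order. It was at 442, 430.3 and 394 CPM in Huh-7, at 609.8, 672 and 657 CPM in Ako-3 and at 793, 752 and 806 CPM in Mko-3 libraries. The groups again did not overlap, but here Mko-3 libraries were highest. On the log2 scale the difference was 0.61 (SE 0.062) for Ako-3 and 0.88 (SE 0.060) for Mko-3 against Huh-7, and 0.28 (SE 0.038) for Mko-3 against Ako-3.

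**Figure D1:**
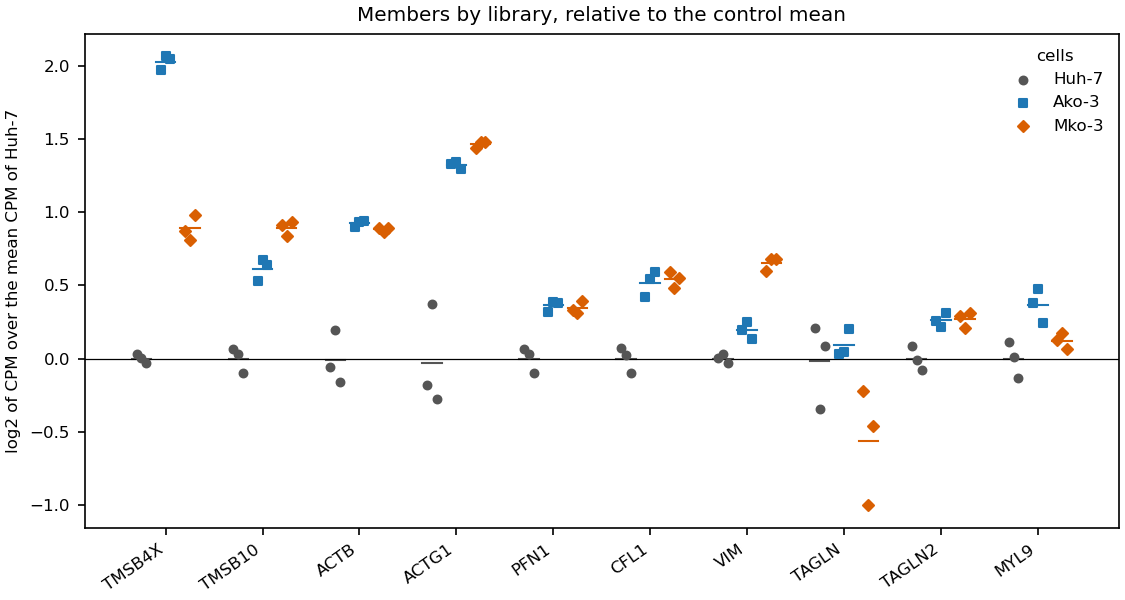
The log2 of CPM over the mean CPM of Huh-7 is shown for each of the 10 genes, with 1 point per library (3 per group) and a short line at the mean of the points. TMSB4X libraries of Ako-3 cells lie near 2 and those of Mko-3 cells near 0.9, and for each actin the knockouts lie close together. Within groups, ACTG1 scatters most in Huh-7 cells and TAGLN in Mko-3 cells.

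Levels of different genes were compared per length, as FPKM, the fragment counts scaled by gene length and by library. TMSB10 was the highest member in every group, at 842 ± 51.5 FPKM in Huh-7, 1287 ± 64.1 in Ako-3 and 1566 ± 60.6 in Mko-3 cells (SD, n = 3). TMSB4X was at 45.5 ± 1.06 FPKM in Huh-7, 185 ± 6.12 in Ako-3 and 84.5 ± 5.44 in Mko-3 cells. The larger fold difference thus fell on the less abundant thymosin. TMSB4X made up 5.13 ± 0.19% of the summed FPKM of TMSB4X and TMSB10 in Huh-7 cells, 12.6 ± 0.19% in Ako-3 cells and 5.11 ± 0.16% in Mko-3 cells. The size of these shares depends on the gene lengths used, 1705 bases for TMSB4X and 496 for TMSB10. In Mko-3 cells both thymosins were higher by a similar factor (1.84-fold each by the fitted values), and their proportion was close to that in Huh-7 cells.

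Both cytoplasmic actins were higher in the 2 knockout clones. ACTB was at 2288, 2730 and 2127 CPM in Huh-7, at 4433, 4542 and 4573 CPM in Ako-3 and at 4428, 4336 and 4410 CPM in Mko-3 libraries. ACTG1 was at 302, 444 and 283 CPM in Huh-7, at 863, 870 and 841 CPM in Ako-3 and at 932, 956 and 955 CPM in Mko-3 libraries. The second Huh-7 library stood above the other two for both actins, by 1.24-fold for ACTB and 1.52-fold for ACTG1, while for the other members except TAGLN it was within 0.988 to 1.03 times their mean. Even so, each knockout library was above each control library.

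For ACTB, the log2 fold change was 0.92 (SE 0.072) in Ako-3 and 0.87 (SE 0.072) in Mko-3 cells against Huh-7. Without the second Huh-7 library these were 1.03 and 0.99. For ACTG1 it was 1.32 (SE 0.18) in Ako-3 and 1.46 (SE 0.19) in Mko-3 cells, and 1.54 and 1.70 without that library. The clones themselves were close, at −0.042 (SE 0.031) for ACTB and 0.14 (SE 0.035) for ACTG1 in Mko-3 against Ako-3 cells. ACTG1 made up 14.4 ± 1.48% of the summed actin FPKM in Huh-7, 18.3 ± 0.44% in Ako-3 and 20.2 ± 0.37% in Mko-3 cells (SD, n = 3). The muscle actin genes ACTA1, ACTA2, ACTC1 and ACTG2 and the beta-actin-like gene ACTBL2 had at most 4 counts in any library and were not tested, so that nearly all actin counts were of these 2 genes.

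The coding sequences of ACTB and ACTG1 are 91.2% identical and share an exact run of 59 bases, the longest between any member pair compared here. How the counting divided reads between them was not tested. The summed FPKM of the actins was 784 ± 118 in Huh-7, 1550 ± 18.7 in Ako-3 and 1551 ± 16.1 in Mko-3 cells. That of the thymosins was 888 ± 52.5, 1473 ± 70.1 and 1651 ± 65.5. The ratio of thymosin to actin FPKM was 1.25, 0.99 and 1.20 in the Huh-7 libraries, 0.91, 0.98 and 0.96 in the Ako-3 libraries and 1.07, 1.03 and 1.09 in the Mko-3 libraries. Its size also depends on the gene lengths used. The low Huh-7 ratio belonged to the library with the high actins, and through it the range of Huh-7 ratios covers those of Mko-3 and overlaps none of the Ako-3 values, all of which were lower. The 10 genes together took 0.48 ± 0.043% of all counts in Huh-7, 0.79 ± 0.015% in Ako-3 and 0.80 ± 0.010% in Mko-3 cells.

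**Figure D2:**
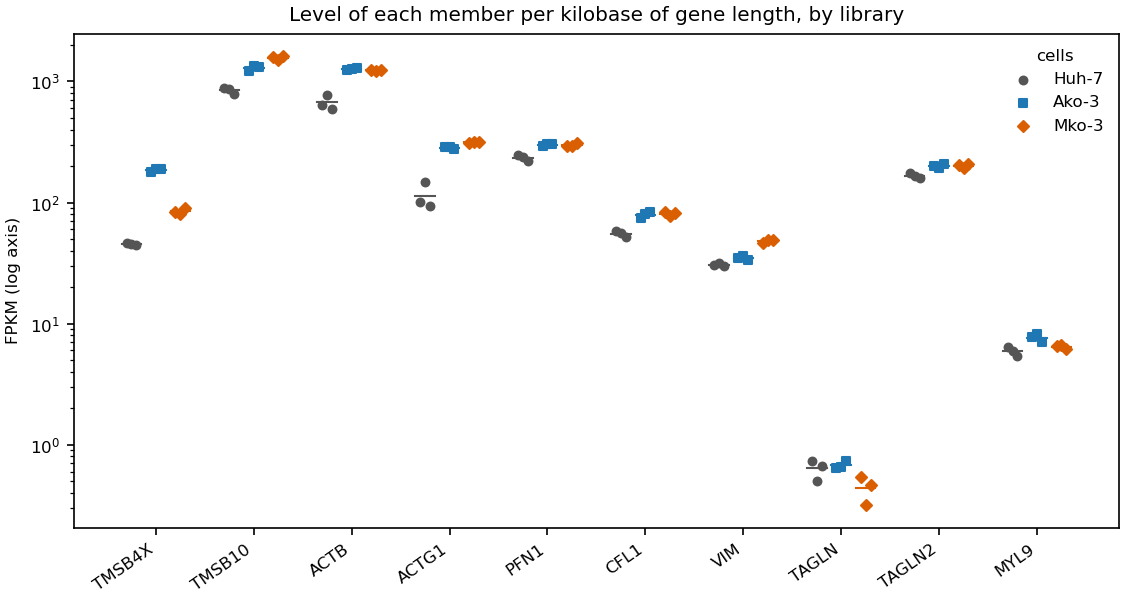
FPKM on a log axis is shown for each of the 10 genes, with 1 point per library and a line at each group's mean. TMSB10 and ACTB are the highest members and TAGLN the lowest in each group, and TMSB4X passes CFL1 in Ako-3 cells.

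Profilin and cofilin moved by smaller amounts, alike in both clones. PFN1 was at 492, 480.1 and 439 CPM in Huh-7, at 587, 616 and 612 CPM in Ako-3 and at 591, 583 and 618 CPM in Mko-3 libraries. CFL1 was at 344, 333 and 306 CPM in Huh-7, at 439, 476 and 494 CPM in Ako-3 and at 493, 457 and 479.7 CPM in Mko-3 libraries. For both genes the knockout libraries lay above the control libraries and overlapped with each other. The log2 fold change of PFN1 was 0.36 (SE 0.060) and 0.33 (SE 0.060), and that of CFL1 was 0.51 (SE 0.064) and 0.53 (SE 0.061), in Ako-3 and Mko-3 cells respectively. Between the clones PFN1 differed by −0.020 (SE 0.037) and CFL1 by 0.019 (SE 0.040) on the log2 scale.

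Their paralogs did not share one direction. PFN2 stood at 0.081 on the log2 scale in Ako-3 cells (adjusted p = 0.30, edgeR's quasi-likelihood test adjusted by Benjamini-Hochberg) and rose by 0.25 in Mko-3 cells (adjusted p = 0.0022). CFL2, the muscle-type cofilin, fell by 0.49 in Ako-3 cells (adjusted p = 1.6e-05, edgeR) and by 0.67 in Mko-3 cells (adjusted p = 1.5e-07), against the direction of CFL1. DSTN, destrin, which acts like cofilin, rose by 0.40 in Mko-3 cells (adjusted p = 1.1e-05, edgeR) and was at 185 to 203 CPM in Huh-7 and 176 to 203.5 CPM in Ako-3 libraries.

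Vimentin differed mainly in Mko-3 cells. VIM was at 159.7, 163 and 156 CPM in Huh-7, at 183, 189 and 175 CPM in Ako-3 and at 242, 256 and 256 CPM in Mko-3 libraries. None of the groups overlapped. Its log2 fold change was 0.18 (SE 0.061) in Ako-3 and 0.64 (SE 0.059) in Mko-3 cells, and 0.46 (SE 0.043) between the clones.

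The smooth muscle transgelin TAGLN was near the lower end of what these libraries can measure, with 30 to 54 counts in Huh-7, 42 to 51 in Ako-3 and 22 to 38 in Mko-3 libraries. It was at 2.90, 1.98 and 2.67 CPM in Huh-7, at 2.57, 2.60 and 2.90 CPM in Ako-3 and at 2.15, 1.26 and 1.83 CPM in Mko-3 libraries. Both knockouts overlapped with the control, while the Mko-3 libraries lay below the Ako-3 libraries. The log2 fold change was 0.076 (SE 0.23) in Ako-3 and −0.55 (SE 0.27) in Mko-3 cells, and it was −0.62 (SE 0.26) between the clones. The Ako-3 value ran from −0.059 to 0.19 when single libraries were omitted, so no direction can be given for it.

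TAGLN2, the transgelin of nonmuscle cells, was expressed at 167 ± 9.33 FPKM in Huh-7, 199 ± 7.05 in Ako-3 and 201 ± 7.86 in Mko-3 cells (SD, n = 3), against 0.64 ± 0.12 FPKM of TAGLN in Huh-7 cells. It was at 443, 415 and 397 CPM in Huh-7, at 499.6, 486 and 519 CPM in Ako-3 and at 511, 485 and 519 CPM in Mko-3 libraries. The knockouts lay above the control and overlapped with each other, with log2 fold changes of 0.25 (SE 0.061) and 0.26 (SE 0.060).

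MYL9 was at 18.2, 17.0 and 15.4 CPM in Huh-7, at 21.9, 23.4 and 20.0 CPM in Ako-3 and at 18.5, 19.1 and 17.6 CPM in Mko-3 libraries. Ako-3 libraries lay above the others, whereas Mko-3 libraries overlapped with the control. For MYL9 the log2 fold change was 0.36 (SE 0.11) in Ako-3 and 0.11 (SE 0.10) in Mko-3 cells. Per length, the myosin light chains were mostly of other genes. MYL12B, a close relative of MYL9, was at 196 ± 18.4 FPKM in Huh-7 cells and MYL12A at 79.4 ± 6.19, against 5.92 ± 0.51 for MYL9. MYL6, the essential light chain, rose by 0.64 in Ako-3 cells (adjusted p = 7.1e-08, edgeR with Benjamini-Hochberg adjustment) and by 0.62 in Mko-3 cells (adjusted p = 1.5e-07).

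**Figure D3:**
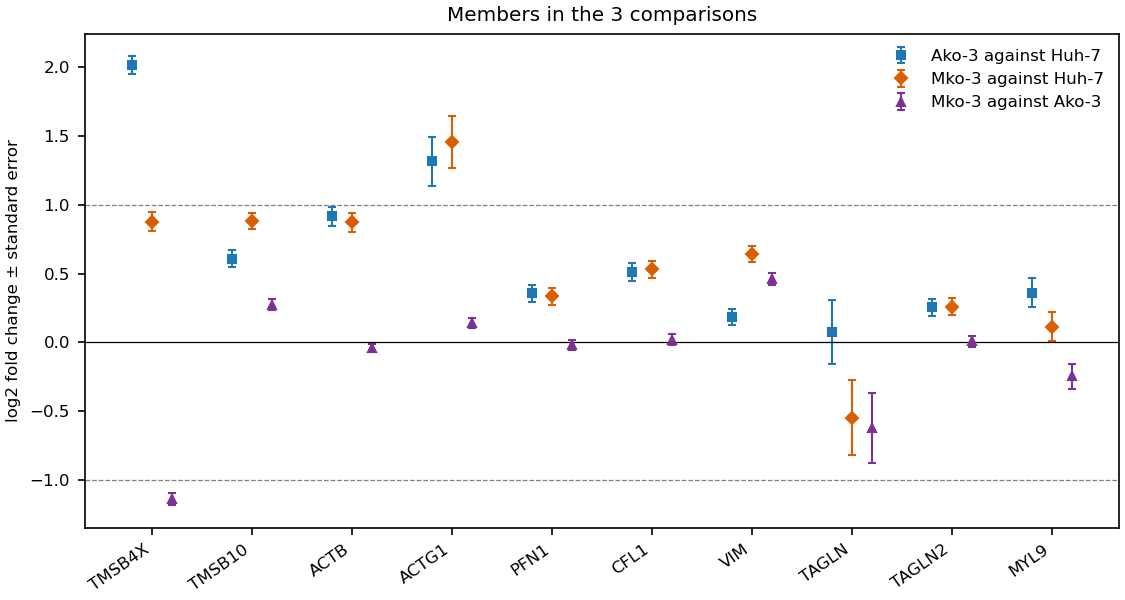
Log2 fold changes of the 10 genes are shown with their standard errors (bars) in the 3 comparisons of 3 libraries with 3. Dashed lines mark a log2 fold change of 1 in either direction, which TMSB4X passes in Ako-3 cells and between the clones and ACTG1 passes in both clones against Huh-7.

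Genes past 1 on the log2 scale in either direction, with an adjusted p of at most 0.05 (edgeR), are referred to as called. In Ako-3 cells 2 of the 10 members were called, TMSB4X and ACTG1, beside 8.52% of the 15787 genes tested. In Mko-3 cells 1 was called, ACTG1, beside 11.0% of 15745 genes, and between the clones 1 was called, TMSB4X, beside 5.73% of 15528 genes. At the adjusted p alone, 9 members were higher in Ako-3 cells, beside 25.5% of all genes tested (24.4% were lower), and 8 were higher in Mko-3 cells, beside 26.9% (27.1% were lower). No member was lower at that threshold in either clone, TAGLN in both and MYL9 in Mko-3 cells being those that did not pass. The libraries of 9 members in Ako-3 and 8 in Mko-3 cells lay wholly above those of Huh-7, beside 29.7% and 30.9% of all genes tested. Since the members were chosen with these comparisons known, nothing is read from these shares. The median log2 fold change of the members was 0.44 in Ako-3 and 0.59 in Mko-3 cells, where the median of all genes tested was −0.009 and −0.011. These comparisons share the Huh-7 libraries.

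Between the clones the members were divided. The median of their log2 fold changes was −0.007, with 3 higher and 3 lower in Mko-3 cells at the adjusted p alone, beside 21.1% and 20.6% of all genes. The libraries of 3 members lay wholly higher and those of 4 wholly lower, beside 25.6% and 24.1%. TMSB10, ACTG1 and VIM were those wholly higher in Mko-3 cells, and TMSB4X, ACTB, TAGLN and MYL9 those wholly lower.

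In the order of FPKM, Huh-7 cells had TMSB10, ACTB, PFN1, TAGLN2, ACTG1, CFL1, TMSB4X, VIM, MYL9 and TAGLN from high to low, and no neighbours in this order overlapped. In Ako-3 cells TMSB10 and ACTB overlapped, at 1287 ± 64.1 and 1267 ± 21.4 FPKM. There TMSB4X had moved above CFL1 and came just below TAGLN2. In Mko-3 cells ACTG1 at 314 ± 4.73 FPKM overlapped with PFN1 at 298 ± 10.1, and TMSB4X overlapped with CFL1. The length of CFL1 in the files is 5863 bases, the longest of the members, and its FPKM depends on that length.

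The pseudogene TMSB4XP8 followed TMSB4X in every group. It had 84, 70 and 49 counts in the Huh-7, 281, 279 and 255 in the Ako-3 and 110, 96 and 120 in the Mko-3 libraries. This was 3.55 to 5.89% of the count of TMSB4X in the same library, without separation of the groups. Its log2 fold change was 1.96 (SE 0.17) in Ako-3 cells and 0.71 (SE 0.20) in Mko-3 cells. Whether these reads came from the pseudogene or from TMSB4X was not tested.

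**Figure D4:**
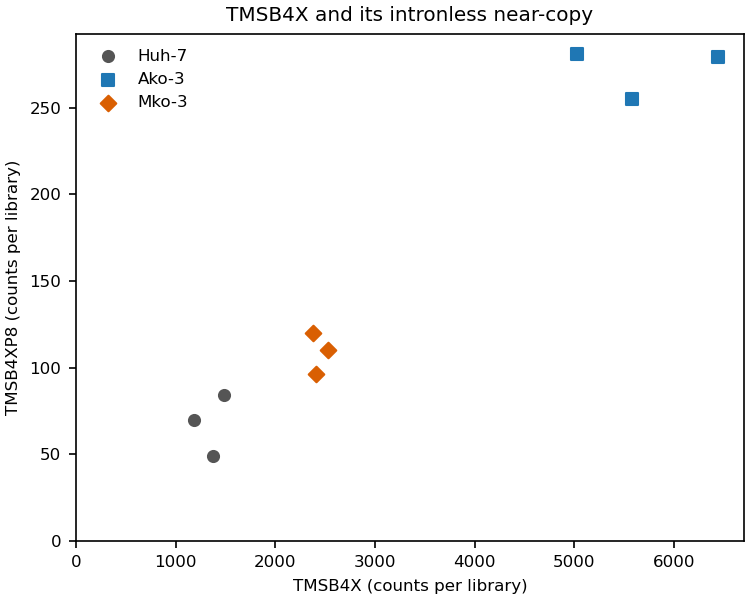
Counts of TMSB4XP8 are plotted against counts of TMSB4X, with 1 point for each of the 9 libraries, colored by group. The Ako-3 libraries have 255 to 281 counts of the pseudogene and the Huh-7 libraries 49 to 84.

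In all, 57 pseudogenes named after 7 of the members are in the files, and 29 of them had no count in any library. After TMSB4XP8, the next highest was ACTG1P17 with 147 counts over the 9 libraries. None of the others held more than 0.73% of the count of its parent gene in any library. The kit did not mark the strand, so reads from genes that overlap a member cannot be told apart from its own where they share sequence. PCSK7, which overlaps TAGLN, had up to 554 counts in a library, more than TAGLN itself. ENO3, which overlaps PFN1, had up to 783 counts, and MUS81, which overlaps CFL1, up to 654. PFN1 itself had at least 7274 counts in each library and CFL1 at least 5046.

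On the X chromosome, TMSB4X has 31 annotated genes starting within 1 Mb of it, of which 7 were tested in at least 1 comparison and 6 in Ako-3 against Huh-7. TLR7, the nearest of those tested, starts 108 kb before it and was at 1.11 ± 0.35 CPM in Huh-7 and 1.75 ± 0.24 CPM in Ako-3 cells (adjusted p = 0.099, edgeR). RAB9A, TRAPPC2 and OFD1, which start 714 to 760 kb beyond it, fell in Ako-3 cells, by 0.66, 0.51 and 0.56 on the log2 scale (adjusted p = 0.00022, 0.00073 and 0.00042, edgeR). The genes near TMSB4X that passed the test in Ako-3 cells were thus lower, unlike TMSB4X. In Mko-3 cells none of the 7 passed the test (adjusted p = 0.11 to 0.92, edgeR).

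Among 9825 genes with a mean of at least 10 CPM, the genes whose log2 CPM was most like that of TMSB4X over the 9 libraries were TSPAN8, HNF4A, EHHADH, ADD1 and PROC (Pearson's r 0.9987 to 0.9918). HNF4A, a hepatocyte transcription factor, was at 473, 773 and 586 CPM on average in Huh-7, Ako-3 and Mko-3 cells. For VIM they were TMED2, RASEF, EIF4E, AFP and ENO1 (r 0.9925 to 0.9897), and AFP, the fetal serum protein, was at 3456, 3856 and 6049 CPM. For TAGLN they were APOL6, COL9A2, LCN2, TOMM7 and PSAP (r 0.9496 to 0.9040). With 3 groups of 3 libraries, such an r mostly reflects the order and spacing of 3 group means. Of the members, MYL9 (r = 0.87) and ACTB (r = 0.83) were nearest to TMSB4X, and TMSB10 was at r = 0.62. ACTB and ACTG1 were at r = 0.99 with each other and PFN1 and CFL1 at r = 0.98.

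To describe the rest of the actin cytoskeleton and genes set beside it, 211 other genes in 12 lists by role were followed in the same fits. Their p values were adjusted over all genes tested. The lists and their totals also hold intermediate filament genes and epithelial-mesenchymal markers, which are not actin cytoskeleton genes. Here a gene rose or fell if its adjusted p was at most 0.05. In Ako-3 cells 55 of 177 genes tested rose and 51 fell, with a median log2 fold change of −0.013, and 7 were called, all lower (8.52% of all genes tested were called, in either direction). In Mko-3 cells 81 of 177 rose and 41 fell, with a median of 0.15, and 13 were called, 7 higher and 6 lower (11.0% of all). Over all genes tested, 25.5% rose and 24.4% fell in Ako-3 cells, and 26.9% rose and 27.1% fell in Mko-3 cells. The counts of each list below are to be read beside these shares. Calls over all genes tested in Ako-3 cells comprised 556 higher and 789 lower genes. Without the third Huh-7 library, 7 list genes were called in Mko-3 cells.

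**Figure D5:**
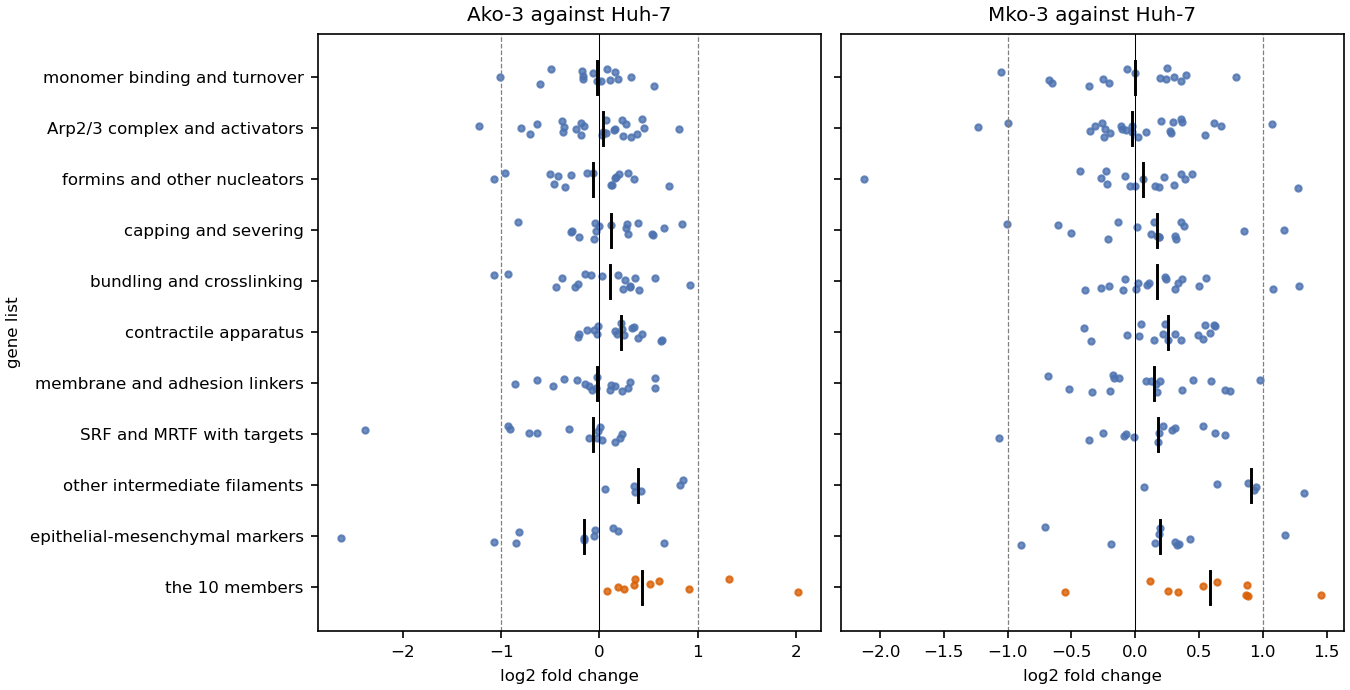
Log2 fold changes against Huh-7 cells are shown for each tested gene (points) of 10 lists and for the 10 members, with a black line at the median of each row. Dashed lines mark a log2 fold change of 1, and most points of the lists lie between them while ACTG1 lies beyond in both clones and TMSB4X in Ako-3 cells.

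Among 15 tested genes of monomer binding and turnover, 3 rose and 4 fell in Ako-3 cells and 7 rose and 5 fell in Mko-3 cells. Those called were TMSB15B in Ako-3 cells, a further beta-thymosin gene, which fell by 1.01 with 9 to 29 counts per library in the 2 groups (adjusted p = 0.043, edgeR), and PFN4 in Mko-3 cells, which fell by 1.05 with 7 to 19 counts (adjusted p = 0.036). Neither call held throughout: neither gene was called with DESeq2 or without the filter on low counts. PFN4 was not called when any single library was omitted. TMSB15B was not called without the first (−0.94) or the second Huh-7 library (−0.695) or without any 1 of the Ako-3 libraries. TMSB15B is 98.6% identical to TMSB15A in its coding sequence, so its counts are uncertain.

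All 25 genes of the Arp2/3 complex and its activators were tested, and 9 rose and 7 fell in each clone. JMY, a nucleation factor, fell by 1.22 in Ako-3 cells (adjusted p = 1.1e-07, edgeR) and by 1.23 in Mko-3 cells (adjusted p = 8e-09). It went from 23.4 to 28.4 CPM in Huh-7 libraries to 9.73 to 13.0 in Ako-3 and 10.3 to 11.5 in Mko-3 libraries. WAS, an activator best known from blood cells, fell by 1.00 in Mko-3 cells (adjusted p = 0.00072, edgeR), just at the threshold, and by 0.64 in Ako-3 cells (adjusted p = 0.021). CYFIP2, of the WAVE complex, rose by 1.07 in Mko-3 cells (adjusted p = 0.013). Neither call was kept throughout, as WAS was not called with DESeq2 (−0.99) or without the first (−0.84) or the third Huh-7 (−0.95) or the first Mko-3 library (−0.87). CYFIP2 was not called without the second (0.98) or the third Huh-7 (0.83) or the first Mko-3 library (0.88). Between the clones CYFIP2 was higher in Mko-3 cells by 1.87 (adjusted p = 1.4e-05, edgeR), at 27 to 44 counts against 6 to 13.

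Of 17 formins and other nucleators, 2 rose and 7 fell in Ako-3 cells and 6 rose and 4 fell in Mko-3 cells. The formin FMNL1 fell by 1.08 in Ako-3 cells (adjusted p = 0.0015, edgeR), and its log2 fold change was −2.12 in Mko-3 cells (adjusted p = 3.9e-06), from 48 to 61 counts in Huh-7 libraries. Its call in Ako-3 cells was lost without the first Ako-3 library (−0.98). Its relative FMNL3 rose by 1.28 in Mko-3 cells (adjusted p = 5.8e-08, edgeR) and, short of a call, by 0.705 in Ako-3 cells (adjusted p = 0.00014). Of 17 capping and severing genes, 7 rose and 4 fell in Ako-3 and 9 rose and 4 fell in Mko-3 cells. VIL1, villin of microvilli, rose by 0.66 in Ako-3 cells (adjusted p = 6e-07, edgeR) and by 0.31 in Mko-3 cells (adjusted p = 0.0014). In Mko-3 cells SCIN, a severing protein, rose by 1.17 (adjusted p = 0.00034) and the tropomodulin TMOD2 fell by 1.01 (adjusted p = 6.8e-06). Without the third Huh-7 library neither was called (0.96 and −0.86). TMOD2 was also lost without the second (−0.89) or the third Mko-3 library (−0.98) and with DESeq2. In Ako-3 cells TMOD2 fell by 0.83 (adjusted p = 5.7e-05, edgeR), and SCIN stood at −0.003 (adjusted p = 0.99).

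Of 18 bundling and crosslinking genes, 9 rose and 6 fell in Ako-3 cells and 9 rose and 3 fell in Mko-3 cells. The filamins differed in direction. FLNA was at 418 to 548 CPM in Huh-7, 678 to 712 in Ako-3 and 1085 to 1205 in Mko-3 libraries, and rose by 1.28 in Mko-3 cells (adjusted p = 2.3e-08, edgeR). FLNC, the muscle filamin, was at 283 to 301 CPM in Huh-7, 134 to 145 in Ako-3 and 301 to 319 in Mko-3 libraries, and fell by 1.07 in Ako-3 cells (adjusted p = 2.7e-11). DBN1, drebrin, rose by 1.08 in Mko-3 cells (adjusted p = 8.4e-11, edgeR) and, short of a call, by 0.92 in Ako-3 cells (adjusted p = 3.6e-09).

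In the contractile apparatus most tested genes rose, with 10 of 17 rising and 1 falling in Ako-3 cells and 11 rising and 1 falling in Mko-3 cells, beside 25.5% and 26.9% of all genes rising. Its median log2 fold change was 0.22 and 0.26. No gene of it was called in either clone. TPM4, a tropomyosin of nonmuscle cells, rose by 0.62 in Mko-3 cells (adjusted p = 9.2e-09, edgeR), and TPM1 was higher in Mko-3 than in Ako-3 cells by 0.55 (adjusted p = 5.2e-17). Of 18 membrane and adhesion linkers, 5 rose and 5 fell in Ako-3 cells and 8 rose and 5 fell in Mko-3 cells. TES, testin, fell by 0.64 in Ako-3 cells (adjusted p = 1.9e-07, edgeR). PARVA, parvin of focal adhesions, rose by 0.98 in Mko-3 cells (adjusted p = 2.9e-08) and by 0.31 in Ako-3 cells (adjusted p = 0.017).

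Of 14 genes of SRF and MRTF with their targets, 2 rose and 4 fell in Ako-3 cells, while 6 rose and 3 fell in Mko-3 cells. TPM1, VCL and CALD1 are also counted in the contractile or the linker list, and all rose in Mko-3 cells. VCL and CALD1 were those that rose in Ako-3 cells. The members, ACTB and ACTG1 among them, are not in this list. ANKRD1 was at 7.33 to 10.9 CPM in Huh-7, 1.39 to 2.14 in Ako-3 and 7.37 to 10.1 in Mko-3 libraries, and fell by 2.38 in Ako-3 cells (adjusted p = 1.1e-08). FHL2 fell by 1.06 in Mko-3 cells with 6 to 21 counts in the 2 groups (adjusted p = 0.042). This call was not made with DESeq2, without the filter on low counts, or without any 1 of the Huh-7 libraries or the first or the second Mko-3 library. SRF itself, named because the list carries its name, stood at 0.023 on the log2 scale in Ako-3 cells (adjusted p = 0.83, edgeR) and at 0.22 in Mko-3 cells (adjusted p = 0.020).

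VIM was set beside 13 other intermediate filament genes of mesenchymal, neural and nuclear type, of which 6 were tested. In Ako-3 cells 4 rose and none fell, and in Mko-3 cells 5 rose and none fell, with medians of 0.39 and 0.91. The lamin genes LMNA, LMNB1 and LMNB2 of the nuclear lamina, noticed after their values were seen, rose in both clones. LMNB2 rose by 0.85 in Ako-3 cells (adjusted p = 2.2e-07, edgeR). NES, nestin, was at 159, 225 and 146 CPM in Huh-7 and 428 to 454 CPM in Mko-3 libraries, and rose by 1.32 in Mko-3 cells (adjusted p = 0.00082). As for the actins, the second Huh-7 library was the highest of its group for NES. It was so too for FLNA, LMNB2, DBN1, MYL6 and FMNL3, among others. Of 11 tested epithelial-mesenchymal markers, 2 rose and 5 fell in Ako-3 and 6 rose and 2 fell in Mko-3 cells. These counts pool epithelial with mesenchymal markers and so give no direction between the 2 kinds. In Ako-3 cells CDH1 and EPCAM rose, and CLDN1, SNAI1, ZEB1, ZEB2 and SPARC fell. The matrix protein gene SPARC fell by 2.63 in Ako-3 cells (adjusted p = 7.7e-09, edgeR). ZEB2 fell by 1.07 there (adjusted p = 0.0068) but was not called without the third Huh-7 (−0.89) or the first or the third Ako-3 library (−0.98 and −0.99). The epithelial adhesion gene EPCAM rose by 1.17 in Mko-3 cells (adjusted p = 4.3e-11) and, short of a call, by 0.66 in Ako-3 cells (adjusted p = 7.9e-07).

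Between the clones, 74 of 175 tested list genes were higher and 28 lower in Mko-3 cells at the adjusted p alone. Over all genes these shares were 21.1% and 20.6%. Of the 175 genes, 7 were called, beside 5.73% of all genes tested. ANKRD1, SPARC, ZEB2, CYFIP2, SCIN and FLNC were higher in Mko-3 cells, and FMNL1 was lower by 1.05 (adjusted p = 0.015, edgeR). Genes with the smallest adjusted p in lists without a call were DSTN, higher by 0.42 (adjusted p = 1.1e-12), TES, higher by 0.51 (adjusted p = 9.1e-14), and NES, higher by 0.97 (adjusted p = 9.1e-33).

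Promoter windows of 300 bases, from 250 before to 50 after the start, were taken from RefSeq (GRCh38.p14), which held entries for 7 of the members. They were searched for the CArG box, the binding motif of SRF, which reads the same on both strands. It occurred in 454 of 35116 windows (1.29%). Among the members with an entry, only the window of ACTG1 held it, starting 94 bases before the start. ACTB, TAGLN and MYL9 had no entry, so whether their promoters hold the box was not examined. The stretch upstream of ACTG1 is shown because this actin had the largest difference in Mko-3 cells. It lies at chr17:81512800-81513049 (minus strand), and capitals mark the box.
ACTG1: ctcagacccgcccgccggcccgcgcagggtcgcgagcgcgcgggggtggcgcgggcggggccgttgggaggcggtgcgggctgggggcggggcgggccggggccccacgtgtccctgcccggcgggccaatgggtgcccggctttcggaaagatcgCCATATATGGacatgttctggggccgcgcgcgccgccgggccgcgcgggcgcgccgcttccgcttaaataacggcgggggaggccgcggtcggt

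Of the 180 list genes with an entry, 17 held the box in at least 1 window (9.44%). This is a share of genes, whereas the 1.29% is a share of windows, and a gene can have more than 1. The lists also include SRF targets and muscle actin genes by choice, so these shares are not comparable. Those of the 17 genes that were tested went in both directions. FLNA and TPM4 were among those that rose in both clones, and LPP, named after its values were seen, among those that fell in both, by 0.86 in Ako-3 cells (adjusted p = 4.5e-05, edgeR).

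Most genes that mark other cell types were near or at 0. Fibroblast and stellate cell markers summed to 26.3 to 29.3 CPM in Huh-7, 19.4 to 23.9 in Ako-3 and 13.4 to 17.5 in Mko-3 libraries, 5 of 10 were under 1 CPM in every library, and THY1 had no count in any Huh-7 or Ako-3 library. Endothelial markers summed to 76.1 to 86.7, 104.7 to 114 and 55.1 to 60.4 CPM, nearly all of it PECAM1, with KDR, TEK and EMCN at 0. Leukocyte markers summed to 267 to 292, 333 to 363 and 334 to 361 CPM, nearly all of it LYZ, with CD68 and MS4A1 at 0. The part of these genes in the values of the members was not tested. The share of mitochondrial counts was 5.52 to 6.17% in Huh-7, 7.06 to 7.40% in Ako-3 and 5.75 to 5.82% in Mko-3 libraries, and its part was not tested either. In bulk RNA, fewer cells with a transcript and less of it per cell cannot be told apart.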

How the data were processed

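RNA from 3 Huh-7, 3 Ako-3 and 3 Mko-3 libraries was analysed, grouped by genotype in the labels. The authors aligned reads to hg38 with HISAT2 2.0.5 and counted them with featureCounts 1.5.0-p3, and deposited raw counts for 58735 genes. The deposited FPKM are these counts divided by gene length and by a library scale. The submitters' notes also list an older build, but the positions of all 10 members overlap the same genes in hg38. The members and lists were chosen with earlier results of these data known.

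Counts were tested with edgeR 4.0.16 in R 4.3.3 by its robust quasi-likelihood F test, after TMM scaling and filterByExpr with the minimum count set to 10. Each comparison was fitted on its own 6 libraries, and p values were adjusted by Benjamini-Hochberg over every gene tested. Calls needed a log2 change of 1 or more in size and an adjusted p no higher than 0.05. The SE is the log2 fold change divided by the square root of F. CPM used TMM over all libraries. The fit was tested on simulated data. Of 241 symbols in the lists, 2 were matched through older names.

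The text names all 10 members, APOB and MTTP. In each list and comparison it names up to 3 called genes with the largest change or, if none, the gene with the smallest adjusted p. It also names paralogs of members, their pseudogenes, tested genes within 1 Mb of TMSB4X, and the 5 genes most like TMSB4X, TAGLN and VIM (log2 of CPM + 0.5). The separate results of 1 list, which is in the totals over the 12 lists, are not reported here.

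With totals of 14638727 to 20179760 counts, genes near 10 counts have wide errors. The alternatives were DESeq2 1.42.0, its size factors in edgeR, total counts alone, other filters on low counts, 1 fit over all 9 libraries, a replicate block, each library left out, and the adjusted p alone. Coding sequences and TMSB4XP8 came from hg38 with GENCODE annotation, and promoters from RefSeq.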

Additional observations from a re-analysis of the deposited data

Results flagged for a closer look

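In 7 of 175 tested list genes the difference between the clones was itself called (edgeR, Mko-3 against Ako-3), beside 5.73% of all genes tested. SPARC and ZEB2 of the epithelial-mesenchymal markers were among these 7. The log2 fold change was 2.31 for ANKRD1, 1.87 for CYFIP2, 1.17 for FLNC, −1.05 for FMNL1, 1.17 for SCIN, 2.44 for SPARC and 1.505 for ZEB2. FMNL1 was no longer called without the second Ako-3 (−0.87) or the third Mko-3 library (−0.94).

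For TAGLN, every Ako-3 library lay above and every Mko-3 library below the mean of the Huh-7 libraries, with a log2 fold change of −0.62 between the clones. This difference passed the adjusted p but not the fold threshold of the fit across all genes (edgeR), and it is given as a description because the members were chosen with results known. It ran from −0.81 to −0.43 when single libraries were omitted, and the Huh-7 libraries themselves ranged from 1.98 to 2.90 CPM.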

How the results depend on the processing

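The members called were 2, 1 and 1 in Ako-3 against Huh-7, Mko-3 against Huh-7 and Mko-3 against Ako-3. These counts were the same under the other tools, scalings and filters, 2 to 3, 1 to 1 and 1 to 1 with each library left out, and 9, 8 and 6 at the adjusted p alone. The third member in Ako-3 cells was ACTB, called at 1.03 without the second Huh-7 library. Of 360 member fold changes under an alternative, 349 moved by less than 1 SD of the libraries. The other 11 were all with total counts alone, which moved the median of all genes in Ako-3 cells from −0.009 to −0.10 and the share of its calls that were higher from 41.3% to 30.8%.

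Over all genes, the calls of 1345, 1739 and 890 fell to 841, 1113 and 511 with at least 10 counts in every library, where fewer genes were tested, and were 7880, 8509 and 6462 at the adjusted p alone. With each library left out they ranged from 1254 to 1637, 1623 to 2106 and 895 to 964. Of the list genes, 7, 13 and 7 were called, and 106, 122 and 102 at the adjusted p alone. With each library left out they ranged from 5 to 8, 7 to 14 and 6 to 10. The 7 in Mko-3 cells were without the third Huh-7 library, where SCIN (0.96), CYFIP2 (0.83) and TMOD2 (−0.86) were among those lost. WAS and TMOD2, at the threshold, were lost in several settings, DESeq2 among them.

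Replicate numbers are shared by the groups but do not pair them, as same-numbered libraries correlated at −0.096 to 0.078 in their deviations from the group means. A replicate block gave 1336, 1730 and 899 calls, with the members called 2, 1 and 1 and the list genes 6, 9 and 7. Depth limits TAGLN and list genes near 10 counts most.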
